A study of Apis mellifera with 12 samples.

Results

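The miR-71, miR-2 and miR-13 cluster of the honey bee, Apis mellifera, was followed in worker fat body through its 4 reporters on a miRNA array, named ame-miR-71, ame-miR-2, ame-miR-13a and ame-miR-13b. The reporters were chosen by name, and all 4 were found among the 168 bee miRNA reporters of the array. All bees were newly emerged workers injected with 2 µL of double-stranded RNA (dsRNA) at 10 µg/µL. In one group it targeted vitellogenin, the yolk precursor protein that the fat body makes (dsRNA-Vg). In the sham-injected group it matched the jellyfish gene for green fluorescent protein, which bees do not carry (dsRNA-GFP). Adults were sampled at 15 days of age. There were 6 pools per group, each made from 5 bees and read on 1 array. The 5 bees of a pool gave equal amounts of RNA, the labels call the bees foragers, and no uninjected bees were among the samples. The tissue was the abdominal carcass with its lining of fat body, which also holds muscle and other tissues, and the vitellogenin mRNA was not analysed here.

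A miRNA is a short RNA that guides a silencing complex to messenger RNAs, mainly through its seed, here bases 2 to 8. The miR-2 and miR-13 miRNAs form one seed family of invertebrates, and in the fly members of that family repress cell death genes such as reaper, grim and sickle. In the cockroach, miR-2 family members lower the transcript of Krüppel homolog 1, a gene of the juvenile hormone pathway. miR-71 is an invertebrate miRNA without a vertebrate counterpart, and in the nematode Caenorhabditis elegans it extends life span. Clusters in which miR-71 precedes or follows miR-2 family genes are found across many invertebrates, and clustered miRNAs are often cut from 1 primary transcript.

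In the RefSeq gene table of assembly Amel_HAv3.1, 7 miRNA genes of this cluster stand next to each other on linkage group LG1 with 0 other genes between them. Their order is Mir2-2, Mir2-1, Mir13b, Mir13a, Mir2-3 and Mir71, and the seventh gene, Mir2b, overlaps Mir2-1. All 7 lie inside the coordinates of the protein-coding gene LOC726544. The 3 numbered miR-2 genes share the 1 reporter named miR-2, so their products could not be told apart, and no reporter named miR-2b was used here. The array listed the mature sequence that each reporter targets. These sequences are shown because the likeness of the members bears on what each reporter can tell apart, and the seed is in capitals.
ame-miR-71: uGAAAGACauggguaguga
ame-miR-2: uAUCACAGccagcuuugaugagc
ame-miR-13a: uAUCACAGccauuuugaugag
ame-miR-13b: uAUCACAGccauuuuugacgauu
ame-miR-11: cAUCACAGgcagaguucuaguu
ame-miR-2944: uAUCACAGcaguaguuaccuggu

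miR-2, miR-13a and miR-13b had the same seed, which miR-11 and miR-2944 also carried, so 5 of the 168 reporters held it. No other reporter had the seed of miR-71. The first 15 bases of miR-13a and miR-13b were identical, and those of miR-2 were identical to both up to base 11. Over ungapped alignments miR-13b matched miR-2 at 18 positions and miR-13a at 15, miR-2 matched miR-13a at 13, and miR-71 matched these 3 at 8 to 10. The ungapped count understates the likeness of miR-2 and miR-13a. Besides their first 11 bases both hold the run uuugaugag near the 3' end, out of register by a gap. Whether a reporter also bound the miRNA of a relative was not tested. Mir11, which in the fly acts on cell death and growth genes, and Mir2944 lie on other linkage groups (LG9 and LG15).

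Each reporter was spotted 18 times on an array of 3968 spots. The median intensity of the empty spots of an array was 150.2 to 491.3, and the 95th percentile of the empty spots (the empty limit) was 164.4 to 544.8. A reporter with 50% or more of its spots over the limit was taken as detected. Between 37 and 168 reporters were detected per array. Detection on 6 or more of the 12 arrays admitted 127 reporters to the test, among them all 4 cluster members, miR-11 and miR-2944. Normalized log2 intensities of different arrays correlated at 0.921 to 0.996 over these reporters. Precision is limited by how many arrays there were. Probes differ in how well they bind, so the brightness of one reporter is not set against that of another.

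Against the empty spots of the same array, the members fell at very different distances from the background. miR-2 read 13.04 to 47.8 times the empty limit on the dsRNA-GFP arrays (median 41.7) and 30.1 to 110 times on the dsRNA-Vg arrays (median 60.2). miR-13b read 3.32 to 12.4 times the limit on the dsRNA-GFP arrays (median 5.94) and 5.46 to 19.8 times on the dsRNA-Vg arrays (median 11.2). Both were detected on all 12 arrays with all 18 spots above the limit. The limit itself was 272.1 to 544.8 on the dsRNA-GFP arrays and 164.4 to 458.1 on the dsRNA-Vg arrays, so these multiples do not compare the groups. The mean scanner signal in the dsRNA-GFP and dsRNA-Vg groups was 13582 and 17129 for miR-2, and 2749 and 3224 for miR-13b.

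miR-71 read 1.10 to 1.96 times the limit on the dsRNA-GFP arrays and 0.987 to 1.73 times on the dsRNA-Vg arrays. It was detected on 6 dsRNA-GFP arrays and on 5 dsRNA-Vg arrays, with dsRNA-Vg pool 6 the exception, where 8 of 18 spots exceeded the limit. miR-13a lay at the limit itself, at 0.820 to 1.17 times on the dsRNA-GFP arrays and 0.851 to 1.04 times on the dsRNA-Vg arrays. It was detected on 4 dsRNA-GFP and 2 dsRNA-Vg arrays, which is just the 6 arrays needed to be tested, and on dsRNA-GFP pool 4 and dsRNA-Vg pool 6 it had 0 of 18 spots above the limit. The 6 arrays on which miR-13a was detected were those with the most reporters detected, 125 to 168 of 168, against 37 to 120 on the other 6. The miR-13a and miR-13b genes stand next to each other in the gene table, while the miR-13a reporter was at background and the miR-13b reporter was clear of it. Since probes differ in how well they bind, this does not show which of the 2 miRNAs was more abundant.

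**Figure D1:**
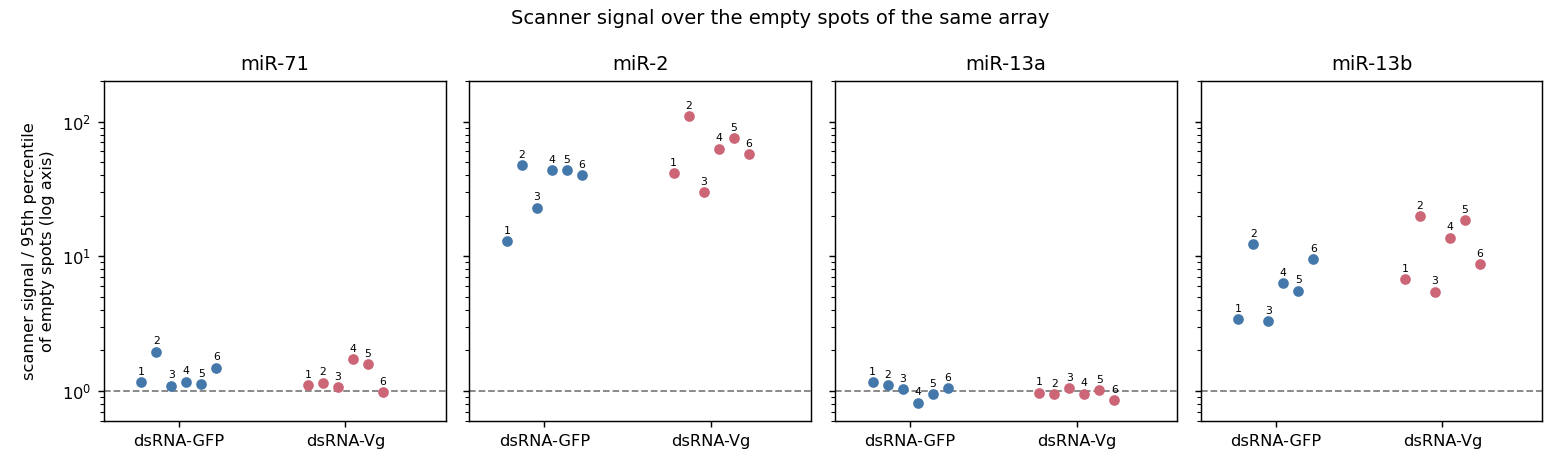
Mean scanner signal of each member divided by the 95th percentile of the empty spots of the same array (log axis), for 6 dsRNA-GFP pools (blue) and 6 dsRNA-Vg pools (red), with pool numbers beside the points and a dashed line at the limit. miR-2 and miR-13b are above the limit on every array, miR-71 lies close above it on most, and miR-13a straddles it.

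The groups were compared to ask whether any member differs when vitellogenin is targeted by RNA interference. None of the 4 members passed the test over all 127 reporters tested (0 higher, 0 lower), where the background was 1.57% of reporters called higher (2 of 127) and 0% called lower. At an unadjusted p under 0.05, 1 member had a positive and 1 a negative difference, against 12 (9.45%) and 6 (4.72%) of all 127 reporters. The median log2 fold change was -0.09 over the 4 members and -0.01 over all reporters tested. The 2 members with the smaller p, miR-13b and miR-13a, had differences of opposite sign.

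miR-13b, on a normalized log2 intensity scale, read 10.71 to 11.27 in the dsRNA-GFP pools (median 11.10) and 11.26 to 11.50 in the dsRNA-Vg pools (median 11.35). In 5 of 6 dsRNA-Vg pools the level exceeded that of every dsRNA-GFP pool, and dsRNA-Vg pool 1 lay level with dsRNA-GFP pools 2 and 6, so the groups overlapped. The dsRNA-GFP pools were also the more scattered, with an SD of 0.23 against 0.09, chiefly through the low pools 3 and 5. The difference was 1.26-fold (95% CI 1.09 to 1.45), or 0.33 on the log2 scale (SE 0.10, limma adjusted p = 0.145), which ranked 4 by p among the 127 reporters. With scaling to the array median the log2 fold change was 0.76 (SE 0.46, limma adjusted p = 0.455). It was 0.52 without normalization between arrays (SE 0.39, limma adjusted p = 0.613) and 0.20 with cyclic loess (SE 0.15, limma adjusted p = 0.497). The interval and rank are those under quantile normalization, and the SE was higher in each of these settings.

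miR-13a read 6.99 to 7.35 in the dsRNA-GFP pools (median 7.02) and 6.81 to 6.95 in the dsRNA-Vg pools (median 6.90). Every dsRNA-Vg pool lay below every dsRNA-GFP pool, which was the case for 1 of 127 reporters (0.787%), namely miR-13a itself. The gap between the nearest pools, dsRNA-GFP pool 4 and dsRNA-Vg pool 5, was 0.04, while the standard errors over their spots were 0.049 and 0.034, so the order of those 2 pools was not resolved. dsRNA-GFP pool 1 was the highest of all, and there the 18 spots had a coefficient of variation of 27.0%, against 4.18% to 8.04% on the other 11 arrays. The fold was 0.872 (95% CI 0.795 to 0.958), or -0.20 on the log2 scale (SE 0.06, limma adjusted p = 0.155). With the median over spots in place of the mean the log2 fold change was -0.11, and without background correction it was -0.09. It was -0.77 with a subtracted surface of the empty spots (SE 0.35, limma adjusted p = 0.327), where the groups overlapped.

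After quantile normalization miR-71 had the highest SD of the 4 members in each group. It read 7.30 to 8.26 in the dsRNA-GFP pools (median 7.81) and 7.05 to 8.14 in the dsRNA-Vg pools (median 7.43), with SDs of 0.35 and 0.41, where the median SD over all tested reporters was 0.11 and 0.10. High and low pools occurred in both groups: dsRNA-GFP pool 6 and dsRNA-Vg pools 4 and 5 were high, and dsRNA-GFP pool 3 and dsRNA-Vg pool 3 were low. The log2 fold change was -0.20 (SE 0.20, limma adjusted p = 0.686), within the spread between pools. With scaling to the array median the SE of the difference was 0.32 for miR-71 and higher for miR-13b (0.46) and miR-2 (0.40).

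miR-2 was the third brightest miRNA reporter on each of the 12 arrays. Quantile normalization gives a reporter of constant rank nearly the same value on each array, here 13.78 on 11 of them and 13.69 in dsRNA-GFP pool 1, so the difference of 0.02 on the log2 scale (SE 0.02, limma adjusted p = 0.802) carries little information on this miRNA. Before normalization its mean spot intensity was 6247 to 21493 on the dsRNA-GFP arrays and 9378 to 22690 on the dsRNA-Vg arrays, the dimmest being pools 1 and 3 after dsRNA-GFP and pool 3 after dsRNA-Vg. Scaled to the array median, the log2 fold change was 0.69 (SE 0.40, limma adjusted p = 0.455), and with cyclic loess 0.10 (SE 0.07, adjusted p = 0.454). The size of any difference in miR-2 therefore depended on the scaling, and in neither case was the test passed.

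**Figure D2:**
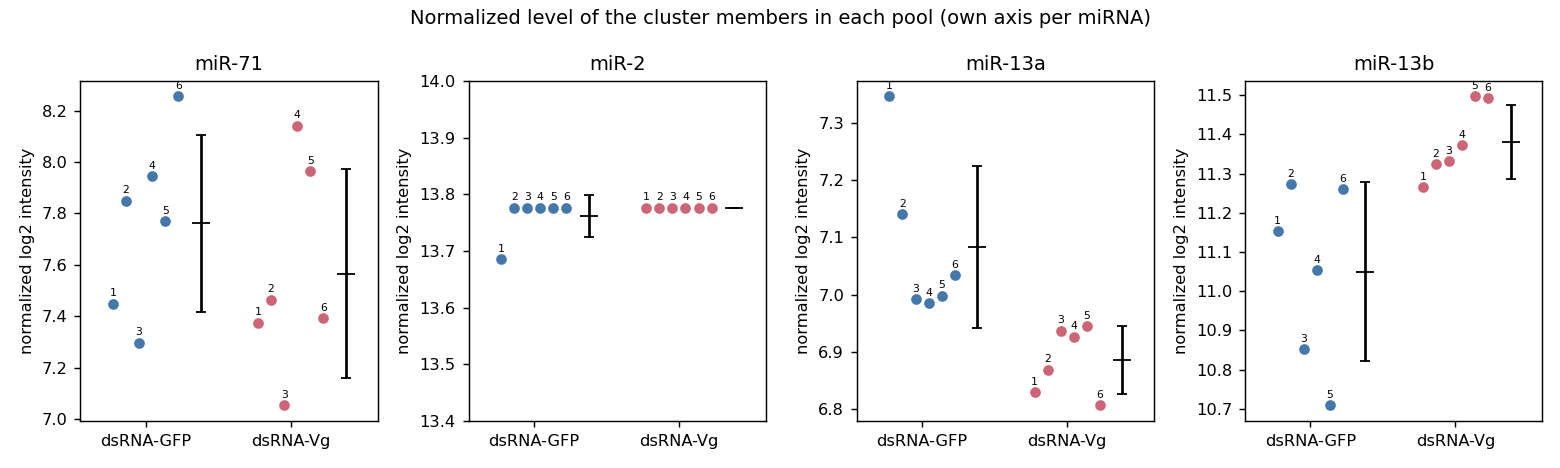
Normalized log2 intensity of each member in the 6 dsRNA-GFP pools (blue) and the 6 dsRNA-Vg pools (red), with pool numbers above the points, black bars for mean ± SD (n = 6) and a separate axis for each miRNA. miR-13a separates the groups by 0.04, 5 of 6 dsRNA-Vg pools of miR-13b are above every dsRNA-GFP pool, miR-71 overlaps widely, and miR-2 is held at 13.78 by the normalization.

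In the authors' deposited value table, whose normalization the sources used here do not give, the intensities gave the same signs. miR-13a had an intensity of 25 to 90 in the dsRNA-GFP pools (mean 43.7 ± 24.5, SD, n = 6) and of 16 to 50 in the dsRNA-Vg pools (26.0 ± 12.1, SD, n = 6). The groups overlapped there, chiefly because dsRNA-Vg pool 3 read 50. miR-13b had an intensity of 1988 to 3558 in the dsRNA-GFP pools and 2664 to 3648 in the dsRNA-Vg pools, also overlapping. By limma on log2(value + 1) of the deposited table, the log2 fold changes were -0.67 for miR-13a (SE 0.33, adjusted p = 0.321) and 0.13 for miR-13b (SE 0.18, adjusted p = 0.801).

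miR-71 in the deposited table had an intensity of 107 to 328 in the dsRNA-GFP pools (median 245) and 70 to 282 in the dsRNA-Vg pools (median 126). On that table its log2 fold change was -0.64 (SE 0.35, limma adjusted p = 0.36). miR-2 had a deposited intensity of 14010 ± 2116 against 15805 ± 1365 (SD, n = 6 each), which differed by 0.18 in mean log2 value (SE 0.15, limma adjusted p = 0.586). No member passed the test on the deposited table.

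Over 24 or 25 other settings per member, of background, scaling, filter, model and left-out pool, 0 of the 4 members passed the test in any. In 9 of these settings the value of each pool was computed anew, by another background correction, scaling or summary of the spots, or from the deposited table. Over those 9 the log2 fold change was negative in 9 for miR-13a and in 9 for miR-71, and positive in 9 for miR-13b. For miR-2 it was positive in 8 and zero in 1. The groups of miR-13a were separated in 6 of the 9 and overlapped in 3 (the subtracted surface, no normalization between arrays and the deposited table), and those of miR-13b were separated in 1.

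**Figure D3:**
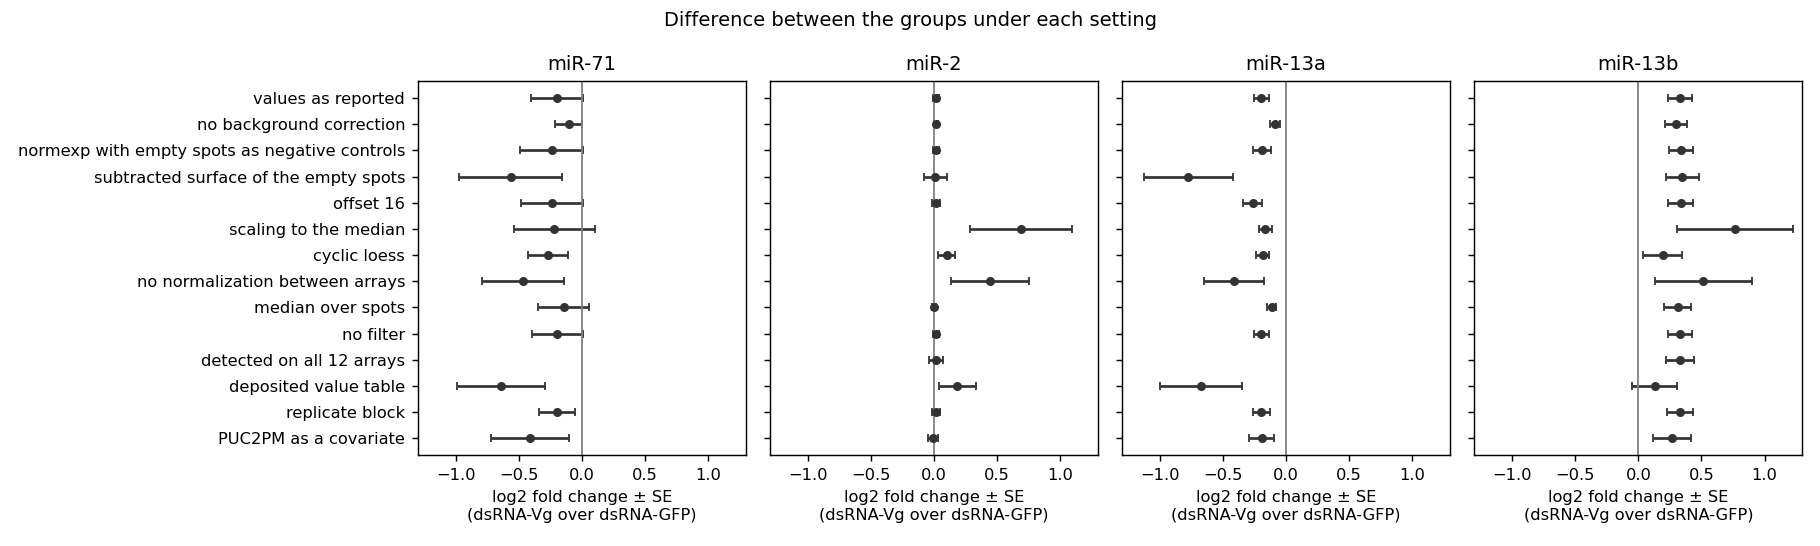
Log2 fold change of dsRNA-Vg over dsRNA-GFP ± SE for each member (columns) as reported and under the settings that keep all pools (lines), with a grey line at no difference. miR-13a and miR-71 lie left of the line and miR-13b right of it throughout, while miR-2 lies between -0.01 (control reporter PUC2PM as a covariate) and 0.69 (scaling to the array median), and miR-71 and miR-13a have no value where detection on all 12 arrays was required.

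Because both miR-13 reporters are read on the same array, the difference of their log2 intensities was taken within each pool. It is given as a description, since the opposite signs were known when it was chosen, and it can show only that the 2 signals differed unequally, not which of them did. miR-13b minus miR-13a was 3.71 to 4.23 in the dsRNA-GFP pools (mean 3.97 ± 0.20, SD, n = 6) and 4.39 to 4.69 in the dsRNA-Vg pools (4.49 ± 0.11, SD, n = 6). The groups did not overlap and their nearest pools, dsRNA-GFP pool 6 and dsRNA-Vg pool 3, were 0.17 apart. Because miR-13a was at the empty limit and undetected on 6 of the 12 arrays, the size of this difference is not that of a ratio of the 2 miRNAs. Nor is the separation a further result, since miR-13a was already separated by itself. Among all 8001 pairs of tested reporters the groups did not overlap for 242 (3.02%), but among the 375 pairs that hold a reporter separated by itself the number was 182 (48.5%), against 60 of 7626 (0.787%) for the other pairs.

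**Figure D4:**
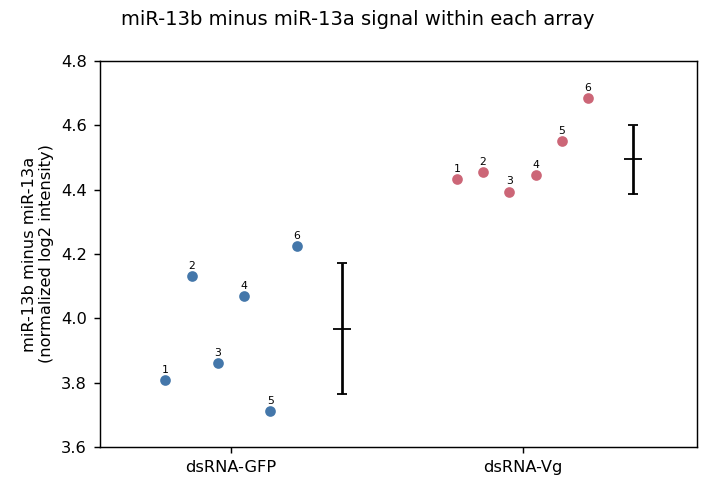
miR-13b minus miR-13a in normalized log2 intensity within each array. Points are pools with their numbers (blue, dsRNA-GFP; red, dsRNA-Vg) and black bars are mean ± SD (n = 6): the groups are 0.17 apart, with miR-13a undetected on 6 of the 12 arrays.

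The other carriers of the miR-2 seed were compared in the same fit, and 0 of 2 passed. miR-11 read 9.74 to 11.20 in the dsRNA-GFP pools and 10.35 to 10.83 in the dsRNA-Vg pools, with dsRNA-GFP pools 3 and 2 at the ends of the whole range. Its log2 fold change was 0.16 (SE 0.20, limma adjusted p = 0.723). miR-2944 lay near the background, detected on 4 arrays of each group, and its groups differed by -0.02 on the log2 scale (SE 0.05, limma adjusted p = 0.868). Of the 5 carriers of the seed, 3 had positive and 2 had negative values, and none passed.

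Co-variation of the members was taken within each group, so that a difference between the groups could not enter it. Of 12 within-group correlations, 3 with miR-2 had no value and the other 3 with miR-2 rest on dsRNA-GFP pool 1 alone, because its normalized level was otherwise constant. That leaves 3 pairs in each group. miR-13a and miR-13b had a Pearson r of 0.48 over the 6 dsRNA-GFP pools (two-sided exact permutation p = 0.378, Spearman rho 0.60, exact p = 0.242). Over the 6 dsRNA-Vg pools r was 0.09 (exact p = 0.821, rho 0.37, exact p = 0.497). miR-71 and miR-13b had an r of 0.46 (exact p = 0.372) and 0.39 (exact p = 0.454), with a rho of 0.49 in each group (exact p = 0.356). miR-71 and miR-13a had an r of -0.32 (exact p = 0.565, rho -0.09, exact p = 0.919) and 0.39 (exact p = 0.419, rho 0.26, exact p = 0.658).

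None of these correlations passed after adjustment over the family (Benjamini-Hochberg adjusted exact permutation p 0.727 to 0.833 for r). Without the 2 pools farthest from the median of the first miRNA, r for miR-13a and miR-13b was 0.65 and 0.60, that for miR-71 and miR-13b -0.10 and 0.13, and that for miR-71 and miR-13a -0.87 and -0.79, each over 4 pools. The sign for miR-71 and miR-13a thus turned in the dsRNA-Vg group. Over all pairs of tested reporters the median within-group r was 0.01 and -0.01, with quartiles of -0.42 and 0.44 in the dsRNA-GFP group and of -0.38 and 0.37 in the dsRNA-Vg group. The higher values of the cluster's pairs lay just above those upper quartiles.

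Co-variation moved with the scaling. With scaling to the array median, miR-71 and miR-13b had an r of 0.96 over the dsRNA-GFP pools (exact permutation p = 0.00139, the smallest that 6 pools can give, adjusted p = 0.0167) and 0.70 over the dsRNA-Vg pools (exact p = 0.121). In that setting miR-2 and miR-13b had an r of 0.85 and 0.91 (adjusted exact permutation p = 0.183 and 0.1). Without normalization between arrays miR-2 and miR-13b had a rho of 1 over the dsRNA-GFP pools (adjusted exact permutation p = 0.0333), with an r of 0.89 (adjusted exact p = 0.125). In the deposited table miR-2 and miR-13a had an r of -0.85 and -0.73 (adjusted exact permutation p = 0.375 and 0.428), and miR-13a and miR-13b one of 0.76 and 0.50 (adjusted exact p = 0.375 and 0.65). Arrays differ in overall brightness, which enters any correlation that the scaling does not remove, and how much it contributed was not tested.

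By likeness over the 12 pools, measured as Pearson r of the group-centred log2 intensity, the nearest reporters to the members were not other members. For miR-71 they were miR-375, known in mammals from the hormone-secreting cells of the pancreas, at r = 0.93, and miR-3793 at r = 0.78. Mir375 lies on linkage group LG3. miR-375 read 7.52 to 8.15 in the dsRNA-GFP pools and 7.33 to 8.15 in the dsRNA-Vg pools, and was detected on all 12 arrays, at 1.02 to 1.88 times the empty limit. Like miR-71 it was highest in dsRNA-GFP pool 6 and dsRNA-Vg pools 4 and 5 and lowest in dsRNA-Vg pool 3. The r was 0.92 within the dsRNA-GFP pools and 0.94 within the dsRNA-Vg pools, and 0.93 over the 10 pools left without the 2 farthest. It was 0.81 to 0.97 over 8 other settings, the deposited table among them (0.90), and in 7 of the 8 miR-375 was again the reporter nearest to miR-71. The pair was picked as the highest of many correlations, so no p is given.

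**Figure D5:**
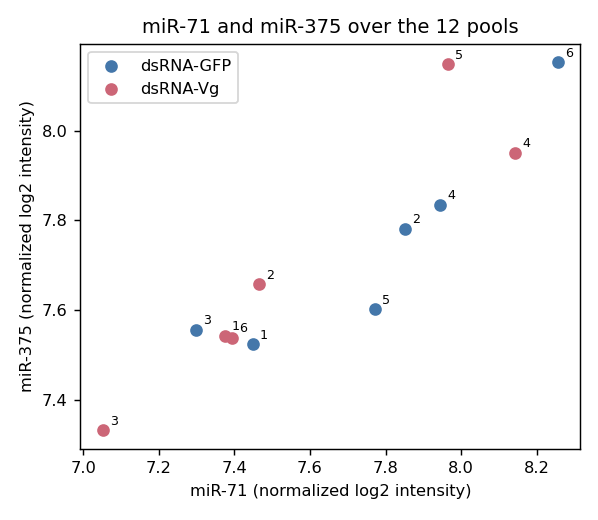
Normalized log2 intensity of miR-71 (x axis) and miR-375 (y axis) in the 6 dsRNA-GFP pools (blue) and 6 dsRNA-Vg pools (red), numbered by pool. The 2 reporters rise together in both groups (r = 0.92 and 0.94).

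For miR-13a the nearest reporters were miR-3753 (r = 0.85) and miR-3736 (r = 0.73), and for miR-13b miR-3779 (r = 0.68) and miR-996 (r = 0.65), the last a relative of miR-279. The value for miR-13a and miR-3753 rested on dsRNA-GFP pool 1, where both were highest: r was 0.42 over 10 pools without the 2 farthest and -0.09 with the median over spots. Within the dsRNA-GFP and dsRNA-Vg groups, r of miR-13b was 0.86 and 0.75 with miR-3779, and 0.77 and 0.04 with miR-996. Over 8 other settings it was 0.34 to 0.72 with miR-3779, the nearest reporter in 1 of them. With miR-996 it was 0.49 to 0.75, nearest in 0 of the 8. For miR-2 the nearest reporters were miR-306 (r = 0.61) and miR-1000 (r = 0.58), which fell to 0.19 and 0.13 without the 2 farthest pools.

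Markers of other tissues were set beside the members because a carcass holds more than fat body. Of 8 markers fixed for muscle, midgut, nervous system and ovary, 0 passed the test between the groups. All 3 midgut markers were nevertheless lower after dsRNA-Vg. Their log2 fold changes were -1.89 for miR-750 (SE 0.99, limma adjusted p = 0.375) and -1.17 for miR-1175 (SE 0.67, limma adjusted p = 0.420). For miR-281 it was -0.46 (SE 0.20, limma adjusted p = 0.330). Values outside muscle and midgut were smaller: 0.05 for miR-124, -0.10 for miR-7 and 0.09 for miR-989. Whether the groups differed in midgut content was not tested. The summed linear intensity of the 2 muscle markers ranged from 1107 to 3164 in the dsRNA-GFP pools and 1510 to 2527 in the dsRNA-Vg pools. That of the 3 midgut markers ranged from 516.1 to 6311 and 465.1 to 4530, that of the 2 nervous system markers from 252.0 to 296.8 and 249.9 to 319.1, and that of the ovary marker from 130.6 to 153.0 and 134.6 to 164.1.

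Over the 12 pools, group-centred, miR-71 had an r of 0.68 with the muscle marker miR-1 and of 0.22 with the other muscle marker, miR-133 (0.53 and -0.26 within the groups). It ran against the midgut markers miR-750 (r = -0.74), miR-1175 (r = -0.64) and miR-281 (r = -0.24). The 2 muscle markers also differed towards miR-13a, with an r of -0.83 for miR-133 (-0.84 and -0.79 within the groups) and 0.37 for miR-1 (0.30 and 0.66). Their own log2 fold changes were 0.44 for miR-133 (limma adjusted p = 0.218) and -0.44 for miR-1 (limma adjusted p = 0.535). With scaling to the array median, r between miR-13a and miR-133 was 0.10, and without normalization between arrays 0.33. miR-13b had an r between -0.44 and 0.39 with the 8 markers. The part of these tissues in the members' values was not tested, and in pooled tissue fewer cells of a type cannot be told apart from less RNA per cell.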

How the data were processed

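Small RNA of 12 pools was hybridised to 1-colour (Cy3) arrays, per the labels' protocols. The deposited scanner files give 1 median intensity per spot and no local background, per the file headers. The authors' deposited value table holds whole-number intensities on a linear scale. Its log2(value + 1) was regressed on log2 scanner signal less a fitted surface of the empty spots. The slope was 0.80 to 1.13 per array, over the 35 reporters detected on all 12 arrays. The deposited table had medians of 24 to 41.5 per array. Its Spearman correlation with the uncorrected scanner signal over all 168 reporters was 0.899 to 0.984. Its centring is unknown.

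Spot intensities were corrected with normexp (limma 3.58.1 in R 4.3.3, with an offset of 50), using every spot for the fit. Control spots were left out, log2 values were quantile normalized, and the 18 spots averaged. The offset shrinks changes of dim reporters. Groups were compared with limma (lmFit, eBayes), Benjamini-Hochberg adjusted over the 127 reporters tested, threshold 0.05, after a check on simulated data. Correlations used two-sided exact permutation tests with 6 pools a group.

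Named miRNAs were the members, reporters sharing a seed with them, and the 2 reporters nearest to each member by correlation. Members, lists and settings were chosen with earlier results of these data known.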

Additional observations from a re-analysis of the deposited data

Results flagged for a closer look

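In 13 groups of 6 values checked for the 4 members, miR-11, miR-2944 and the difference of miR-13b and miR-13a, 1 pool stood far from the other 5, where chance gives about 0.65. This was miR-2 in dsRNA-GFP pool 1, at a log2 intensity of 13.69 where the nearest of the others read 13.78. Quantile normalization held all of the other 5 pools at 13.78, so any departure would be flagged and the chance figure does not apply to this group. The spots of miR-2 had a coefficient of variation of 13.9% on that array, against 2.54% to 5.91% on the other 11.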

How the results depend on the processing

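The count of miRNAs higher after dsRNA-Vg was 2 and fell to 1 without normalization between arrays, under median scaling and with only the 35 reporters detected on all 12 arrays (fewer tested), and to 0 with the control reporter PUC2PM as a covariate. It was 3 with the pool number as a replicate block, in which miR-13b had a limma adjusted p of 0.163 and miR-13a one of 0.209, and the block changed no call of a member. Whether the pool numbers pair the arrays was not settled: same-number correlations of deviations from the group means were -0.33 to 0.70, 3 of 6 over 0.1, and 2 of 6 pools correlated best with their own number. With each pool left out in turn the count higher was 2 to 3, and the count lower stayed at 0 throughout (limma; 6 at an unadjusted p under 0.05 in the values as reported). The log2 fold change ranged from -0.31 to -0.09 for miR-71, 0.00 to 0.02 for miR-2, -0.22 to -0.14 for miR-13a and 0.26 to 0.37 for miR-13b without single pools, with adjusted p of at least 0.105 for all 4. The sign of miR-2 turned with PUC2PM as a covariate (-0.0065), and that of miR-2944 with cyclic loess (0.0034), with the median over spots (0.0097) and without dsRNA-Vg pool 6 (0.0084; range over pools -0.0403 to 0.0084). Before normalization between arrays, PUC2PM had a log2 intensity of 8.99 to 10.78 on the dsRNA-GFP arrays and 10.26 to 12.27 on the dsRNA-Vg arrays. It thus ran partly with the group, so the covariate and the group cannot be fully told apart. The within-array difference of miR-13b and miR-13a between the groups was 0.53 as reported and 0.48 to 0.58 without single pools. It was 1.12 with a subtracted surface, 0.93 under median scaling, 0.93 without normalization between arrays and 0.80 in the deposited table. The number of within-group correlations of members past the threshold by Pearson's r was 0 and became 1 with scaling to the median. By Spearman's rho the same pair passed there, and miR-2 with miR-13b passed without normalization between arrays. The causes of these shifts were not tested. Without normalization between arrays the median of all reporters lay at -0.22, so the members stood at -0.24 for miR-71, 0.67 for miR-2, -0.19 for miR-13a and 0.74 for miR-13b relative to it. The headers used here give no slide or scan, so no such block was fitted. The replicate block, the covariate and the filters were not applied to correlations or within-array differences. Signal near the empty spots limits miR-13a and miR-2944.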
